A study of Mus musculus with 33 samples.

Results

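Cadherins Cdh2, Cdh4, Cdh6, Cdh8, Cdh10, Cdh11 and Cdh13 were followed in cultured enteric neural crest cells (ENCCs), with and without glial cell line-derived neurotrophic factor (GDNF), and in whole gut of the mouse embryo. The members were fixed by name: every probe set of the array that the platform annotation gives exactly 1 of these 7 symbols was taken. This gave 20 probe sets for 7 genes, out of 34945 probe sets for 18193 genes, and none of the 20 carried a second symbol. The genes lie, on build GRCm38.p6, on chromosome 18 from 16588877 to 16809246 (Cdh2), on chromosome 2 from 179442423 to 179899377 (Cdh4), on chromosome 15 from 13028699 to 13176407 (Cdh6) and from 18818869 to 19016206 (Cdh10), and on chromosome 8 from 99024471 to 99417666 (Cdh8), from 102632095 to 102785493 (Cdh11) and from 118140017 to 119324929 (Cdh13). The data are 33 Affymetrix arrays in 2 labelled batches of 17 and 16.

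All tissue came from C57BL/6 embryos at day 14.5. The ENCCs carried 2 transgenes, Wnt1-Cre-recombinase and the reporter LoxP/R26-YFP. In such mice Cre under the Wnt1 driver switches on yellow fluorescent protein in the neural crest lineage, and the fluorescent cells were sorted from the dissected gut. The sorted cells of 1 gut were divided over 2 wells coated with fibronectin, in medium with N2, B27, FGF and EGF. Control wells therefore also received both growth factors. One well of each pair received 50 ng/ml GDNF and the other none. This gave 9 embryos, 9 untreated and 9 treated RNAs, and 25 ENCC arrays because 7 of the 18 RNAs were read in both batches. Whole gut came from wild type C57BL/6 embryos, from duodenum to anus, with no culture described for it, and was read on 8 arrays of batch 2. The labels' cell type entry for these 8 arrays names enteric neural crest cells, although their source and description entries describe gut. ENCCs and whole gut therefore differed in genotype, sorting and culture together, and these cannot be told apart. Nothing in the labels tells if some embryos were littermates, so p-values measure the spread between these samples only.

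Cadherins are calcium-dependent adhesion molecules that bind the same or related cadherins on a neighbouring cell. Classical members hold catenins at their cytoplasmic tail and through them the actin cytoskeleton. Neural crest cells exchange one set of cadherins for another as they leave the neural tube, and cadherins also serve the chain-like movement of crest cells through the gut wall. Cdh2 (N-cadherin) and Cdh4 (R-cadherin) are type I classical cadherins. Cdh6, Cdh8, Cdh10 and Cdh11 are type II classical cadherins, of which Cdh11 is the cadherin best known from mesenchyme. Cdh13 (T-cadherin) has no transmembrane or cytoplasmic part and is held to the membrane by a lipid anchor, so it is not a classical cadherin in the strict sense of the name.

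The deposited values are scores, not intensities. On every array the 45101 sorted values are those of a normal distribution, from -4.08 to 4.08 with a median of 0, so a score gives only the rank of a probe set on its own array. A difference of scores is not a fold change, and levels of different genes cannot be set against each other. Probe sets also had nearly the same mean and spread over the 7 ENCC RNAs read in both batches. Their mean score had an SD over probe sets of 0.058 in batch 1 and 0.117 in batch 2, against 0.369 for the other ENCC arrays of batch 1 and 0.97 for whole gut, and the median SD of a probe set over the 7 RNAs was 1.06 in each batch. A score therefore places an array relative to those 7 RNAs (3 untreated and 4 treated), which bounds the size of a GDNF difference, and a whole gut score does not tell how abundant a transcript was. A gene's score is the mean of its probe sets, and the number of arrays limits the precision of every value. In bulk RNA, fewer cells of a type and less RNA per cell cannot be told apart.

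RefSeq promoter sequences of 300 bases (GRCm38.p6), 250 before and 50 after the transcription start, were matched for 3 of the 7 members, Cdh6, Cdh8 and Cdh10. Those of Cdh6 and Cdh10 are shown because both genes scored above whole gut in untreated and in treated ENCCs. Capitals mark CANNTG, the core letters of an E-box, which reads the same on both strands and which factors of the Snail, Zeb and Twist families are known to recognise in some of its forms. The Cdh6 window is chr15:13173626-13173925 on the minus strand, and the Cdh10 window is chr15:18820079-18820378 on the plus strand. Both windows lie inside the spans given above for these genes, not at their upstream ends.
Cdh6: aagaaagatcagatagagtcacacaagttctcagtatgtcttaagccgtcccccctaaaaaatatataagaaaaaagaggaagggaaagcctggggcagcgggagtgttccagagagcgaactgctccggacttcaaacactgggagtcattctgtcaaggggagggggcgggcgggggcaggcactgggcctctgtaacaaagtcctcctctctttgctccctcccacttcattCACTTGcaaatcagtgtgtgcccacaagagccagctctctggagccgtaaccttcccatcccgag
Cdh10: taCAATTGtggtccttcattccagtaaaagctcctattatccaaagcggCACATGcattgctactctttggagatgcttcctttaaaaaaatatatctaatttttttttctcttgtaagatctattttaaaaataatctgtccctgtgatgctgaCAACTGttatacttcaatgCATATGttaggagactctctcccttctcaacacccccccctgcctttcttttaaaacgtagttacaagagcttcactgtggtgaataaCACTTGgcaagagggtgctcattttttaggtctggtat

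The Cdh6 window holds 1 CANNTG and has a GC content of 53%, while the Cdh10 window holds 5 and has a GC content of 37.7%. Among 32851 promoters of the same length, 72.3% hold at least 1 CANNTG, the median is 1 and 2.10% hold at least as many as Cdh10. The Cdh8 window, not shown, holds 2. The forms CAGGTG and CACCTG, which are each other's complement and fall within the CANNTG search, are in none of these 3 windows and in 20.2% of all promoters. These are matches of letters only.

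Compared with whole gut, untreated ENCCs had higher scores of Cdh2, Cdh6, Cdh8, Cdh10 and Cdh13. Cdh4 and Cdh11 did not pass the test. This comparison used batch 2 only, with 4 untreated ENCC arrays (embryos 2, 3, 8 and 9) and 8 whole guts, in a limma fit over all genes with Benjamini-Hochberg adjustment at 0.05. The fit gives a gene 1 common variance, but the wells varied more than the whole guts (for Cdh2, SD 1.05 against 0.06). SEs, intervals and limma p-values therefore understate the spread of the wells. Of all genes, 42.6% passed, 19.8% with the higher score in ENCCs and 22.8% with the lower. Of the 7 members, 5 passed with the higher score in ENCCs and 0 with the lower, and their median difference was 1.22 against -0.01 over all genes.

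Cdh2, the N-cadherin of crest cells and neurons, scored 1.08, -0.96, 0.75 and 1.39 in the untreated wells of embryos 2, 3, 8 and 9. In the 8 whole guts it lay between -1.83 and -1.65 with a median of -1.80. All 4 untreated wells were above every whole gut, although the batch 2 array of embryo 3 lay far below the others. The same RNA scored 1.09 in batch 1, so the low value belonged to that array and did not repeat. The difference was 2.35 ± 0.32 (SE; limma adjusted p = 5.4e-05). Its probe set 1418815_at differed by 3.58 (limma adjusted p = 7.3e-07) and 1449244_at by 1.12 (limma adjusted p = 0.0275). Of all probe sets tested singly, 37.8% passed in this comparison.

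The untreated wells of embryos 2, 3, 8 and 9 gave -0.73, -0.47, -1.46 and 0.56 for Cdh6, a type II cadherin of the early neural crest. Whole gut lay at -2.41 to -2.26 with a median of -2.36. No well overlapped the whole guts, and the difference was 1.83 ± 0.27 (SE; limma adjusted p = 9.5e-05). Both probe sets showed it, at 1.78 for 1442257_at and 1.88 for 1450288_at.

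Cdh10, a type II cadherin known from neural tissue, scored 0.55, 0.23, 0.17 and 1.18 in the same wells and -0.88 to -0.78 in whole gut, with a median of -0.84. The groups did not overlap, and the difference was 1.37 ± 0.19 (SE; limma adjusted p = 4.8e-05). Of its 4 probe sets, 1425092_at (2.26), 1446399_at (2.00) and 1460538_at (0.95) passed the test, and 1433302_at, at 0.26, did not (limma adjusted p = 0.588).

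For Cdh13 the untreated wells gave 0.10, 0.23, 0.57 and 0.96, and whole gut gave -0.95 to -0.55 with a median of -0.74. Every well was above every whole gut. The difference was 1.22 ± 0.18 (SE; limma adjusted p = 9.8e-05), and 3 of 4 probe sets passed, with 1431824_at at 0.64 (limma adjusted p = 0.142) the exception.

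Cdh8, another type II cadherin of neurons, scored -0.03, 1.56, -0.03 and 0.18 in untreated wells and -0.66 to -0.07, with a median of -0.26, in whole gut. The groups did not overlap, but 3 wells lay just above the highest whole gut and the batch 2 array of embryo 3 far above it. The same RNA of embryo 3 scored -0.63 in batch 1. The difference was 0.71 ± 0.26 (SE; limma adjusted p = 0.0431). Without embryo 3 it was 0.33 (limma adjusted p = 0.0560), and the call was also lost without any single whole gut. On 1 probe set, 1441690_at, embryo 3 alone stood at 3.28.

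Cdh4, the R-cadherin, gave -1.25, 0.32, 0.82 and -0.34 in untreated wells and 0.36 to 0.69, with a median of 0.47, in whole gut. The wells spread on both sides of the whole guts. The difference was -0.62 with a 95% interval of -1.24 to 0.00053 (limma adjusted p = 0.1001), and without embryo 8 it was -0.93 and passed (limma adjusted p = 0.00970). Its probe sets went opposite ways: 1449422_at differed by -0.98, 1456397_at by -1.78 and 1449637_at by 0.91, each past the threshold.

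Cdh11, the mesenchymal cadherin, scored 1.44, 0.29, 1.17 and -0.59 in untreated wells against 0.65 to 1.01, with a median of 0.80, in whole gut. The wells reached above and below the tissue, and the difference was -0.22 with a 95% interval of -0.85 to 0.41 (limma adjusted p = 0.577). At the level of single genes, 5 of 7 members had untreated wells entirely above whole gut, against 12.4% of all genes, and 0 had them entirely below (groups of 27.6% of all genes did not overlap in either direction). For each of those 5 the exact two-sided permutation p, unadjusted, was 0.00202, the smallest that 4 arrays against 8 allow. Groups that do not overlap fix this p in advance, so it adds nothing to the lack of overlap. The probe sets of Cdh8, taken singly, all overlapped whole gut.

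**Figure D1:**
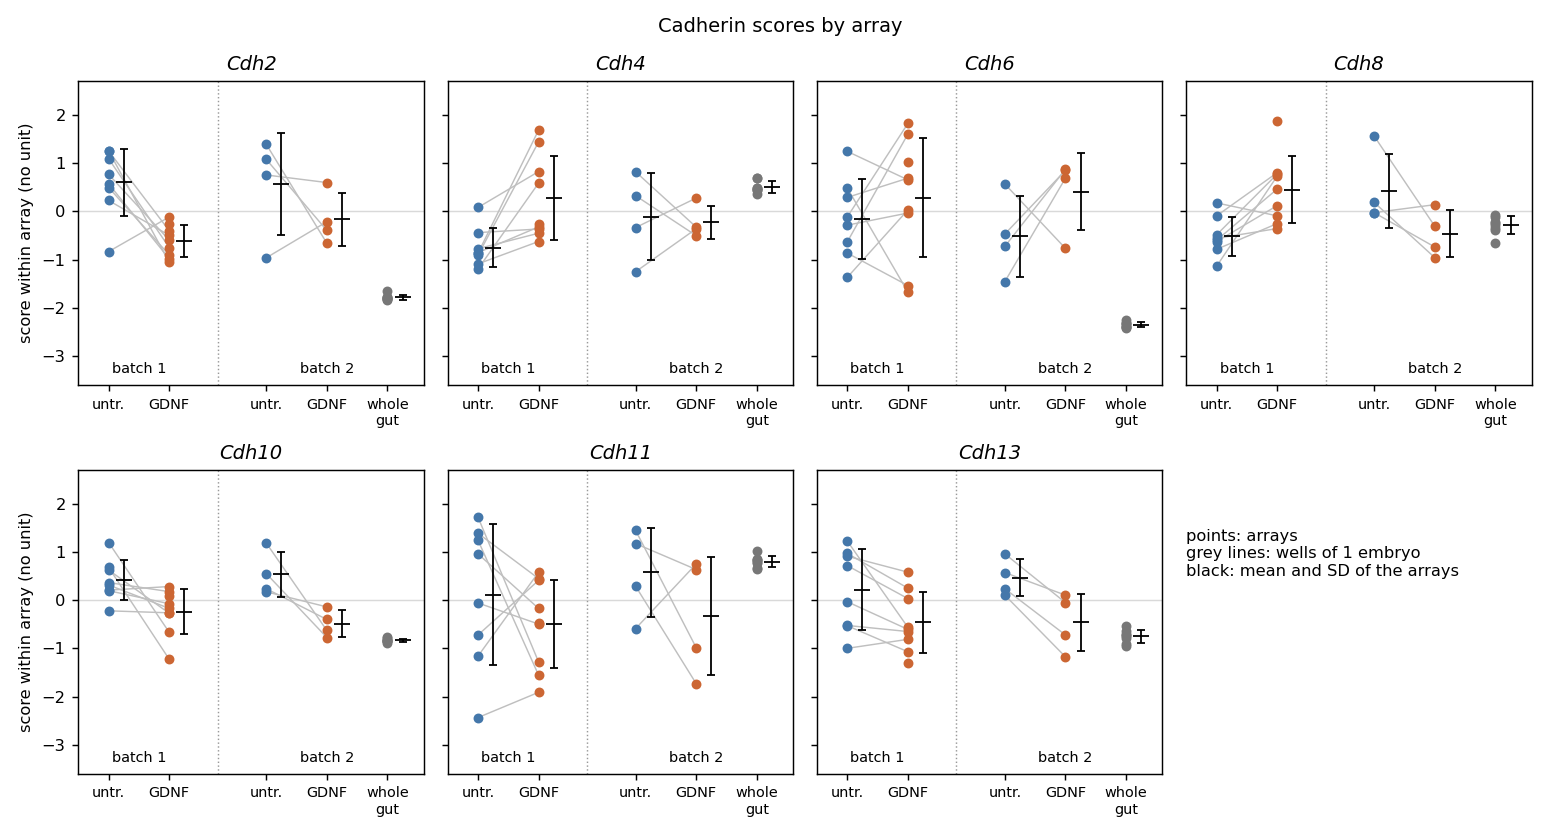
Score of each cadherin (mean of its probe sets, rank scores with no unit) on every array, by group and batch; grey lines join the 2 wells of 1 embryo, and the mean and SD of each group are drawn beside the points. Whole gut points of Cdh2, Cdh6, Cdh10 and Cdh13 lie below all untreated wells of batch 2. Those of Cdh4 and Cdh11 lie within the spread of the same untreated wells.

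In GDNF-treated ENCCs, Cdh2, Cdh6 and Cdh10 scored higher than whole gut, and Cdh4 and Cdh11 scored lower. The 8 whole guts are those of the preceding comparison, so the comparisons are not independent. The common variance again makes SEs, intervals and limma p-values understate the spread of the wells. Here 51.0% of all genes passed, 25.1% higher and 26.0% lower in treated ENCCs. The members' 3 higher and 2 lower calls are to be read against those shares, and their median difference was 0.29 against -0.02 over all genes.

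The treated wells of embryos 2, 3, 8 and 9 had Cdh6 scores of 0.87, 0.85, 0.69 and -0.77, all above the whole guts. The difference was 2.76 ± 0.26 (SE; limma adjusted p = 1.5e-06). For Cdh2 the treated wells gave -0.40, -0.22, 0.60 and -0.66, again all above whole gut, with a difference of 1.62 ± 0.19 (SE; limma adjusted p = 1.3e-05). Both genes kept their call without any 1 of the 12 arrays.

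Cdh4 scored -0.36, -0.50, -0.33 and 0.27 in treated wells, all below the lowest whole gut at 0.36. The difference was -0.74 ± 0.15 (SE; limma adjusted p = 0.00121). It rested on 1449422_at, at -1.73 (limma adjusted p = 8.0e-05), since 1456397_at at -0.48 and 1449637_at at -0.0033 did not pass. Over the ENCC RNAs read in both batches, the scores of 1449422_at did not repeat (Pearson r = -0.57), while those of 1456397_at did (0.69). Over the alternative settings the limma adjusted p of Cdh4 reached 0.378, so this call is weakly supported. Singly, 47.2% of all probe sets passed.

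Cdh11 gave -0.99, -1.73, 0.63 and 0.75, so that embryos 2 and 3 lay far below whole gut and embryos 8 and 9 within or just under its range. The difference was -1.13 ± 0.38 (SE; limma adjusted p = 0.0239). It no longer passed without embryo 2 (-0.92, limma adjusted p = 0.0792) or embryo 3 (-0.67, limma adjusted p = 0.0764).

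Cdh10 lay at -0.78, -0.40, -0.14 and -0.63 in treated wells, with the lowest well level with the highest whole gut. The difference was 0.35 ± 0.13 (SE; limma adjusted p = 0.0387), and the call was lost in 10 of the 12 fits that left out 1 array. None of its 4 probe sets passed alone.

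Cdh13 scored -1.18, -0.73, 0.10 and -0.05 in treated wells, below, among and above the whole guts. The difference was 0.29 with a 95% interval of -0.17 to 0.75 (limma adjusted p = 0.280), and without embryo 2 it was 0.53 and passed (limma adjusted p = 0.0199). Cdh8, at 0.14, -0.31, -0.74 and -0.96, overlapped whole gut, with a difference of -0.18 and a 95% interval of -0.60 to 0.24 (limma adjusted p = 0.465). Treated wells stood apart from whole gut for 3 of 7 members (Cdh2 and Cdh6 above, Cdh4 below), against 34.9% of all genes.

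**Figure D2:**
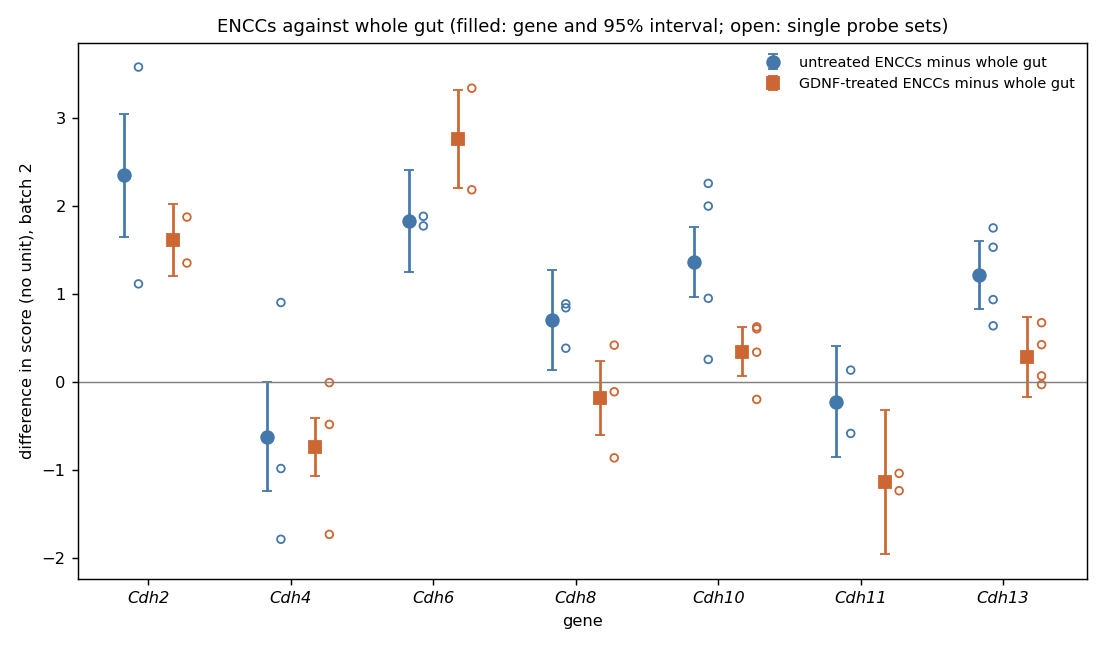
Difference in score from whole gut for untreated and GDNF-treated ENCCs of batch 2 (4 arrays each, against the same 8 whole guts); filled points are genes with their 95% interval and open circles are single probe sets. Cdh2 and Cdh6 lie to the higher side for both kinds of well, and the probe sets of Cdh4 scatter on both sides of 0 in untreated wells.

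Between the wells of the same embryo, GDNF was accompanied by lower scores of Cdh2, Cdh10 and Cdh13 and by a higher score of Cdh4. Cdh6, Cdh8 and Cdh11 did not pass the test. The difference, treated minus untreated, was taken within embryo and batch, averaged over batches where both existed, and tested over the 9 embryos with limma. Of all genes 31.5% passed, 18.3% higher and 13.2% lower with GDNF. Of the 7 members, 1 passed with the higher score and 3 with the lower. The median of the members was -0.64 against 0.005 over all genes.

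Cdh2 ranged over the 9 untreated RNAs from -0.83 to 1.32 with a median of 0.62, and over the 9 treated RNAs from -0.98 to -0.12 with a median of -0.48. In embryos 1 to 9 the differences were 0.72, -1.47, -0.55, -1.55, -1.65, -0.72, -1.36, -0.78 and -2.18. Only embryo 1 went up, and its untreated well was the lowest of the untreated wells. The mean was -1.06 ± 0.85 (SD, n = 9; limma adjusted p = 0.00952), with a 95% interval of -1.65 to -0.47. The fall held without each embryo in turn, at -1.28 to -0.92 and a limma adjusted p of at most 0.0259. It was -1.26 in batch 1 (limma adjusted p = 0.0104) and -0.73 over the 4 embryos of batch 2 (limma adjusted p = 0.496), where embryo 3 went up by 0.75. The same embryo stood at -1.84 in batch 1. Probe set 1418815_at fell by 1.39 (limma adjusted p = 0.00527), and 1449244_at, at -0.73, did not pass (limma adjusted p = 0.0768). Of all probe sets, 30.1% passed singly.

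Cdh4, the other type I member, ranged from -1.25 to -0.03 with a median of -0.77 in untreated RNAs and from -0.63 to 1.44 with a median of -0.32 in treated RNAs. It was higher in the treated well of 8 of 9 embryos, most in embryos 6 (2.35) and 7 (1.78), and slightly lower in embryo 3 (-0.15). The mean difference was 0.79 ± 0.80 (SD, n = 9; limma adjusted p = 0.0370). Its probe sets 1449422_at (0.96) and 1456397_at (1.11) passed, and 1449637_at (0.30) did not (limma adjusted p = 0.546). In batch 2 alone, where embryos 3 and 8 gave -0.83 and -1.15, the mean of 4 embryos was -0.12 (limma adjusted p = 0.927), against 1.10 in batch 1 (limma adjusted p = 0.0244).

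Cdh10 ranged from -0.22 to 1.19 with a median of 0.36 in untreated RNAs and from -0.69 to 0.28 with a median of -0.27 in treated RNAs. It was lower with GDNF in 8 of 9 embryos, with embryo 5 at 0.08, and the mean was -0.70 ± 0.64 (SD, n = 9; limma adjusted p = 0.0391). It was -0.70 in batch 1 (limma adjusted p = 0.0942) and -1.02 in batch 2 (limma adjusted p = 0.286). Its probe sets 1425092_at (-1.07) and 1446399_at (-0.96) passed, and 1433302_at (-0.52) and 1460538_at (-0.24) did not.

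Cdh13 ranged from -1.001 to 1.09 with a median of 0.10 in untreated RNAs and from -1.25 to 0.34 with a median of -0.65 in treated RNAs. It too was lower in 8 of 9 embryos, with embryo 1 at 0.19, and the mean was -0.64 ± 0.50 (SD, n = 9; limma adjusted p = 0.0377). It was -0.57 in batch 1 (limma adjusted p = 0.115) and -0.93 in batch 2 (limma adjusted p = 0.315). Of its probe sets only 1434115_at passed singly, at -0.995 (limma adjusted p = 0.0136). The others, 1423551_at (-0.76), 1454015_a_at (-0.66) and 1431824_at (-0.13), did not. The groups of RNAs overlapped widely, and the fall appears within embryos. Without the pairing of wells the limma adjusted p was 0.138.

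The exact two-sided sign change test gave p = 0.0117 for each of Cdh2, Cdh4, Cdh10 and Cdh13, where 9 embryos allow no p below 0.00391. None of the 7 members moved one way in all 9 embryos, as 17.8% of all genes did. The calls of Cdh4, Cdh10 and Cdh13 were near the threshold. Each was lost when 1 of several embryos was left out: embryo 2, 5, 6, 7, 8 or 9 for Cdh4, embryo 2, 3, 6, 7, 8 or 9 for Cdh10, and any embryo but 1 and 4 for Cdh13. The highest limma adjusted p in those fits was 0.0949.

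Cdh6 ranged from -1.41 to 1.24 in untreated RNAs and from -1.54 to 1.82 in treated RNAs. The difference was 0.63 ± 1.39 (SD, n = 9) with a 95% interval of -0.22 to 1.47 (limma adjusted p = 0.258), from 2.23 in embryo 1 to -1.74 in embryo 9. Its probe sets differed: 1442257_at rose by 1.14 (limma adjusted p = 0.0474), while 1450288_at stood at 0.12 (limma adjusted p = 0.879).

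Cdh11 ranged widely, from -2.44 to 1.72 in untreated RNAs and from -1.91 to 0.58 in treated RNAs. The difference was -0.73 ± 1.68 (SD, n = 9) with a 95% interval of -1.71 to 0.26 (limma adjusted p = 0.261). Embryo 6 gave -3.00 and embryo 4 gave 1.74, and 6 embryos were lower and 3 higher with GDNF. For Cdh8 the difference was 0.46 ± 0.87 (SD, n = 9) with a 95% interval of -0.15 to 1.06 (limma adjusted p = 0.249). It was 0.79 in batch 1 (limma adjusted p = 0.0433) and -0.89 over the 4 embryos of batch 2 (limma adjusted p = 0.369).

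**Figure D3:**
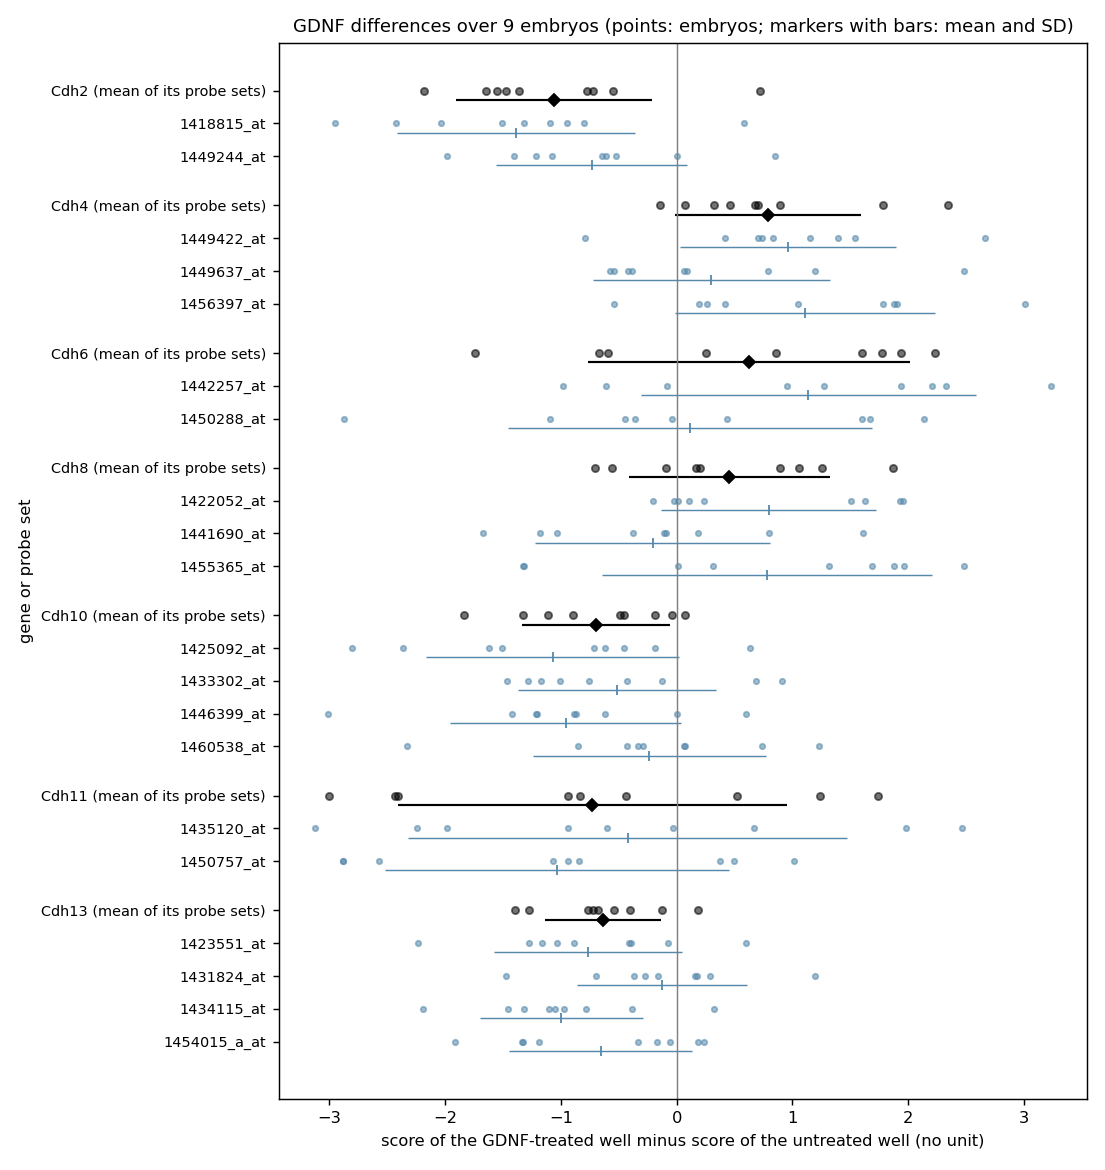
Difference in score between the GDNF-treated and the untreated well of each of the 9 embryos, for each cadherin and each of its probe sets, with the mean and SD. The points of Cdh2 lie below 0 in 8 of 9 embryos, those of Cdh4 above 0 in 8 of 9, and those of Cdh11 spread from -3.00 to 1.74.

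In batch 2, the 3 kinds of sample can be put in order on 1 scale. Cdh2 stood highest in untreated wells (0.56 ± 1.05, SD, n = 4), then in treated wells (-0.17 ± 0.54, SD, n = 4), then in whole gut (-1.78 ± 0.06, SD, n = 8), and the wells overlapped each other but not the tissue. Cdh10 had the same order at 0.53 ± 0.46, -0.49 ± 0.28 and -0.83 ± 0.04, with every untreated well above every treated well. Cdh13 followed at 0.46 ± 0.38, -0.46 ± 0.60 and -0.75 ± 0.14, with treated wells overlapping whole gut and the highest treated well level with the lowest untreated one. Cdh6 differed, with treated wells first (0.41 ± 0.79), untreated wells next (-0.52 ± 0.84) and whole gut last (-2.35 ± 0.06), and with overlap only between the wells. Whole gut stood first for Cdh4 (0.51 ± 0.12) and Cdh11 (0.80 ± 0.11). Wells of batch 2 alone gave no gene past the threshold for GDNF in limma, with 3516 genes at an unadjusted p under 0.05, so the order of the wells there is a description.

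The probe sets of a gene did not repeat equally well. Over the 7 ENCC RNAs read in both batches, 9 of the 20 member probe sets had a Pearson r of at least 0.5 between batches, against 40.9% of all probe sets, and 8 had an r below 0. Cdh13 repeated best as a gene (r = 0.93), then Cdh6 (0.85), Cdh11 (0.84) and Cdh10 (0.67). Cdh2 followed at 0.30, where 1418815_at gave 0.68 and 1449244_at -0.39. Cdh8 (-0.10) and Cdh4 (-0.39) did not repeat. For Cdh4 only 1456397_at repeated (0.69), and it rose by 1.11 with GDNF (limma adjusted p = 0.0251). These correlations describe 7 RNAs of wells from 4 embryos.

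**Figure D4:**
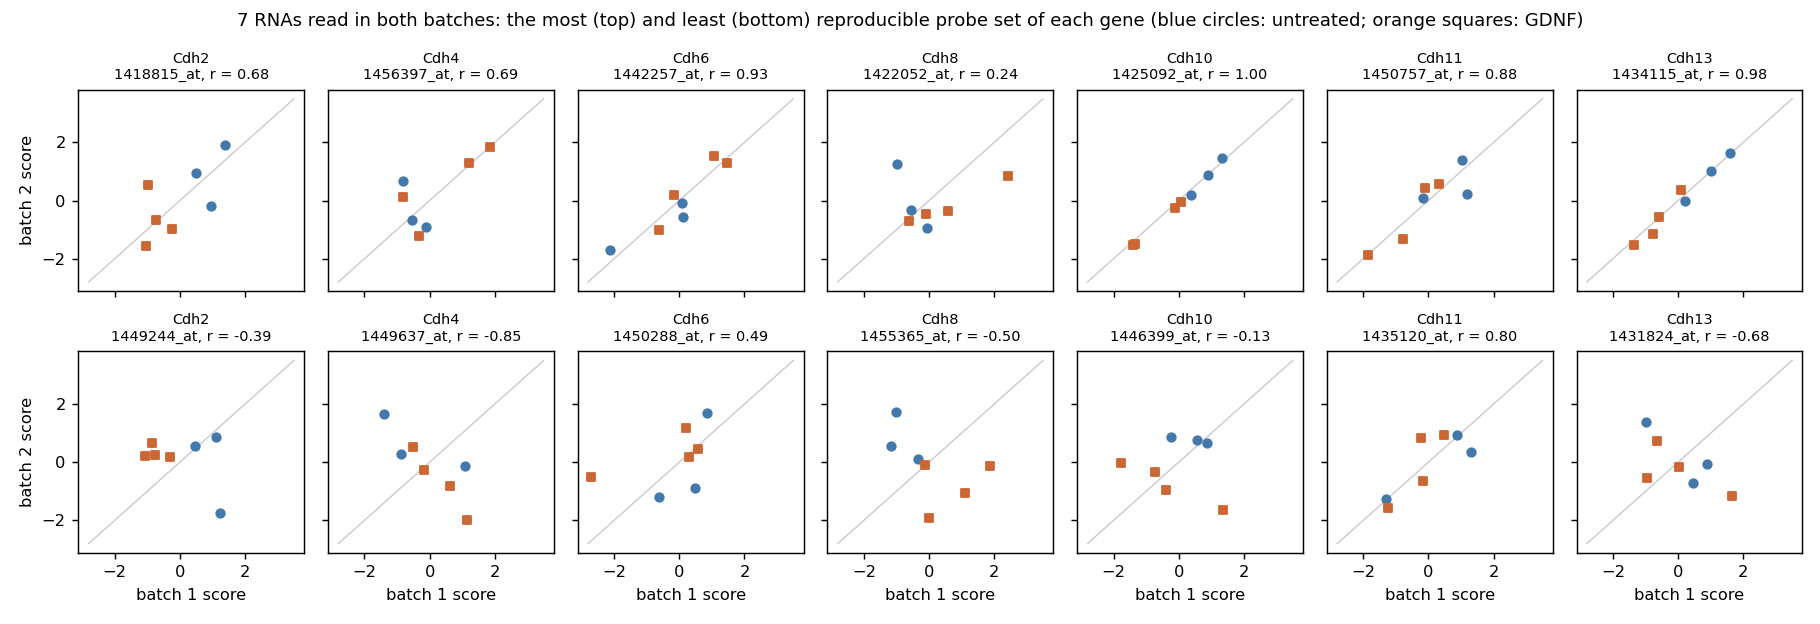
Score in batch 2 against score in batch 1 for the 7 ENCC RNAs read in both, shown for the most and the least reproducible probe set of each cadherin. Points of 1425092_at (Cdh10) and 1434115_at (Cdh13) lie along a rising line, with r of 0.997 and 0.98, and those of 1449637_at (Cdh4) along a falling one, with r of -0.85.

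Over the 18 ENCC RNAs, Cdh2 and Cdh10 had the most similar scores of any member pair (Pearson r = 0.74), followed by Cdh11 and Cdh13 (0.61). Cdh4 ran opposite to Cdh10 (-0.54) and Cdh2 (-0.50). These values mix the difference between wells with that between embryos and have no test. The genes with the highest r to Cdh2 were Igf1r (0.902), the receptor of insulin-like growth factor, Susd6 (0.895) and Timp2 (0.888), a metalloproteinase inhibitor. For Cdh13 they were Igfbp3 (0.933), an IGF-binding protein, Sdc4 (0.932), a heparan sulphate proteoglycan of focal adhesions, and Bmper (0.924), a regulator of BMP signals. For Cdh11 they were Sertad4 (0.902), Ergic1 (0.877) and Arhgap29 (0.876). The other members' leading genes were Zfp704 (0.870), Pdzrn4 (0.867) and Tshz2 (0.847) for Cdh10, Pcdhb4 (0.884), Ppip5k1 (0.856) and Rps6ka6 (0.855) for Cdh4, Adam23 (0.821), A430108G06Rik (0.808) and Pdgfb (0.799) for Cdh6, and Npffr2 (0.804), Dtnb (0.751) and Gucy1a2 (0.745) for Cdh8.

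Among other cadherins, 14 of 16 listed genes were measured, and with GDNF 3 rose and 1 fell. The shares over all genes were 18.3% and 13.2%, and 17.8% of all genes moved one way in all 9 embryos. Cdh7 rose by 1.45 in all 9 embryos (limma adjusted p = 0.00036), Cdh15 by 1.30 (limma adjusted p = 0.0104) and Cdh9 by 0.76 (limma adjusted p = 0.0239). Cdh19, a cadherin of Schwann cell precursors and glia, was lower in all 9 embryos, at -0.91 (limma adjusted p = 0.00989). Against whole gut, untreated ENCCs had 2 higher and 5 lower, against 19.8% and 22.8% of all genes. The higher were Cdh19 at 3.88 and Cdh18 at 1.72, and the lower included the epithelial cadherins Cdh1 (-3.64) and Cdh17 (-2.82). Treated ENCCs had 4 higher and 3 lower, against 25.1% and 26.0% of all genes, with Cdh19 at 2.69 and Cdh1 at -2.85.

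Cadherins work through catenins and their actin anchors, of which all 17 listed genes were measured. With GDNF 3 rose and 4 fell, with a median of -0.19. The shares over all genes were 18.3% and 13.2%, and 17.8% of all genes moved one way in all 9 embryos. The neural catenins Ctnnd2 (1.47) and Ctnna2 (1.45) and the armadillo protein Pkp4 (1.16) rose in all 9 embryos, while Actn4, an actin cross-linker, fell (-1.13). Against whole gut, 2 were higher and 5 lower in untreated ENCCs, against 19.8% and 22.8% of all genes. In treated ENCCs 4 were higher and 8 lower, against 25.1% and 26.0% of all genes. Ctnnd2 was higher in both (0.82 and 2.38).

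A list of proteases, phosphatases and other proteins that process cadherins or regulate adhesion had 13 measured genes. With GDNF 1 rose and 5 fell, against 18.3% and 13.2% of all genes. Furin, a protease that matures cadherin precursors, fell by 1.70 (limma adjusted p = 0.00117), and so did its relative Pcsk6 by 1.37 (limma adjusted p = 0.0108), the phosphatase Ptpn11 by 1.10 (limma adjusted p = 0.00184) and the G protein subunit Gnai2 by 1.05 (limma adjusted p = 0.00223). Adam10, a sheddase of N-cadherin, stood at -0.35 (limma adjusted p = 0.485). Against whole gut, 6 were higher and 1 lower in untreated ENCCs, against 19.8% and 22.8% of all genes. In treated ENCCs 7 were higher and 2 lower, against 25.1% and 26.0% of all genes.

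Transcription factors of crest emigration and epithelial-to-mesenchymal transition, several of them known regulators of cadherin genes, made a list of 11. With GDNF 0 rose and 5 fell, with a median of -0.72. The shares over all genes were 18.3% and 13.2%, and 17.8% of all genes moved one way in all 9 embryos. Snai2, a Snail family repressor, fell by 1.63 in all 9 embryos (limma adjusted p = 0.000182), Tcf4 by 1.19 in all 9 (limma adjusted p = 0.0007), Twist1 by 1.08 (limma adjusted p = 0.00625) and Sox9 by 1.03 (limma adjusted p = 0.00619). Against whole gut, 3 were higher and 2 lower in untreated ENCCs, against 19.8% and 22.8% of all genes. In treated ENCCs 3 were higher and 4 lower, against 25.1% and 26.0% of all genes. Foxd3, a crest progenitor factor, was higher in both, at 3.67 and 2.63, while Snai2 was lower in both, at -0.87 and -2.37.

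Other marker lists were counted in the same way. Over all genes, 18.3% rose and 13.2% fell with GDNF. Untreated ENCCs had 19.8% of all genes higher than whole gut and 22.8% lower, and treated ENCCs had 25.1% higher and 26.0% lower. With GDNF 9 of 12 enteric neuron markers rose and 0 fell, 7 of 15 mesenchyme markers fell and 0 rose, and 6 of 7 measured ribosomal protein genes fell. Of 7 measured glia and progenitor markers 2 rose and 0 fell, and of the smooth muscle, epithelium and endothelium lists 1 of 11, 1 of 14 and 2 of 11 rose and 0 fell. The mean score of the mesenchyme list ran from -0.55 to 0.88 in untreated RNAs and from -1.05 to 0.63 in treated RNAs, and that of the neuron list from -1.58 to -0.26 and from -0.24 to 0.73. That of the ribosomal list ran from 0.38 to 1.24 and from -1.01 to 0.25. Scores have no zero of expression, so absence of a marker cannot be read from them. Against whole gut, 11 of 12 neuron markers were higher in untreated ENCCs, and 14 of 14 epithelium, 11 of 11 endothelium, 10 of 11 smooth muscle and 9 of 15 mesenchyme markers were lower. In treated ENCCs 12 of 12 neuron markers were higher, and 14 of 14 epithelium, 11 of 11 endothelium, 9 of 11 smooth muscle and 13 of 15 mesenchyme markers were lower. The mesenchyme list was not uniform: 2 of its genes were higher in untreated ENCCs, Postn (3.02) and Col1a1 (0.47), and 1 in treated ENCCs, Postn (2.28). Glia and progenitor markers were higher for 5 of 7 in untreated and 6 of 7 in treated ENCCs. Ribosomal protein genes were lower for 0 of 7 in untreated and 6 of 7 in treated ENCCs. In batch 2 the mean of the mesenchyme list ran from 0.27 to 0.65 in untreated wells, from -1.05 to 0.10 in treated wells and from 1.137 to 1.215 in whole gut. The part of these cell types and of RNA amount in the cadherin differences was not tested.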

How the data were processed

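RNA from ENCC wells and whole gut was hybridised to Affymetrix arrays, and the deposited values are scores: on each array the authors' values equal normal quantiles of rank, which cannot be turned back into intensities. The submitters' processing notes name RMA with no version, and further steps and their order are not given in the sources used here. The platform annotation gave the symbols (34958 probe sets with 1, 932 with several, 9211 with none; control probe sets left out), and positions and promoters came from RefSeq. Gene scores were means of probe sets. limma 3.58.1 in R 4.3.3 was fitted over 18193 genes with Benjamini-Hochberg adjustment at 0.05, for 3 comparisons, and was tested on simulated data. Wells were paired because the labels' protocol divides 1 gut over 2 wells; the wells' deviations correlated at 0.063 to 0.296 per embryo. Members and lists were chosen with earlier results of these data known. Named genes were the members, at most 4 genes a list with the largest absolute difference among the called (Adam10, Foxd3, Postn, Col1a1 and the second values given for a gene were added after their values were seen), and for each member the 3 genes of highest correlation. A filter on dim probes cannot be applied to such scores. Alternatives changed the pairing, batch, probe set rule, covariates, array weights and samples. The exact sign change test and the rule keeping probe sets with r of at least 0.5 were added after seeing the data.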

Additional observations from a re-analysis of the deposited data

Results flagged for a closer look

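Of 42 groups of 4 to 9 samples tested with Dixon's test, 3 held a score far from the others, where chance alone gives about 1 in 20. The Cdh8 score of the untreated well of embryo 3 in batch 2 was 1.56, and the next highest of the 4 wells was 0.18. The same RNA scored -0.63 in batch 1, so the high score did not repeat. The Cdh6 score of the GDNF-treated well of embryo 9 in batch 2 was -0.77, and the next lowest was 0.69. The Cdh2 score of whole gut 4 was -1.65, and the next highest of the 8 whole guts was -1.77.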

How the results depend on the processing

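Over the alternatives, 103 of 145 member results for GDNF, 118 of 145 for untreated ENCCs against whole gut and 115 of 145 for treated ENCCs against whole gut kept their direction and their side of the threshold. Many of these settings share arrays or probe sets, and results that passed in neither setting count as kept. Exact test results carry the main difference and an unadjusted p. The shares are therefore no measure of how robust a call was. GDNF in batch 2 alone (4 embryos) called 0 genes in limma (3516 at an unadjusted p under 0.05), and there Cdh4 turned to -0.12 and Cdh8 to -0.89. Without the replicate block, which pairs the wells of an embryo, 4859 genes were called by GDNF in place of 5725, and Cdh13 no longer passed (limma adjusted p = 0.138). With the hybridisation controls as a covariate, Cdh10 (limma adjusted p = 0.185) and Cdh13 (limma adjusted p = 0.117) did not pass and Cdh11 did, at -1.46 (limma adjusted p = 0.0478). Dropping the batch 2 array of untreated embryo 3 gave 9497 genes for untreated ENCCs against whole gut in place of 7752. Array weights by group lowered the count from 7752 to 3761 for untreated and from 9281 to 5805 for treated ENCCs against whole gut. They also ended the calls of Cdh8 in untreated ENCCs (limma adjusted p = 0.351) and of Cdh10 (limma adjusted p = 0.201) and Cdh4 (limma adjusted p = 0.0734) in treated ENCCs. Probe sets with r of at least 0.5 gave 6120 genes of 9704 tested for treated ENCCs. Single probe sets that opposed their gene were 1441690_at of Cdh8 (-0.21 with GDNF), 1449637_at of Cdh4 (0.91, untreated against whole gut), 1450757_at of Cdh11 (0.14, likewise, also as the most reproducible probe set), and, for treated ENCCs, 1422052_at of Cdh8 (0.42, likewise), 1460538_at of Cdh10 (-0.19) and 1431824_at of Cdh13 (-0.026). With the untreated and treated wells of each embryo averaged in batch 2, a setting that pools both kinds of ENCC, Cdh8 stood at 0.26 against whole gut (limma adjusted p = 0.260), opposite in sign to treated ENCCs alone. Leaving out 1 array moved Cdh11 in untreated ENCCs between -0.51 and 0.17. The causes were not tested.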

Other observations

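The scores of the 2 wells of an embryo were compared for each cadherin over the 9 embryos, giving 7 relations. Cdh13 had the closest pair of wells, with Pearson's r = 0.73 (exact permutation p = 0.0331, adjusted 0.232) and Spearman's rho = 0.68 (exact permutation p = 0.0503, adjusted 0.233). Without the 2 embryos farthest from the median of the untreated wells r was 0.82, and in batch 1 alone it was 0.73 over 8 embryos. No relation passed after adjustment. Cdh11 gave r = 0.09 and the median over all genes was 0.228.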
